A study of Mus musculus with 12 samples.

Results

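The genes described here are the subunits, assembly chaperones and activators of the proteasome in mouse liver, measured by bulk RNA sequencing. They were chosen by name, as the genes whose symbol starts with Psm, a letter from a to f and a digit, with processed pseudogenes left out. The rule found 46 of the 23391 genes listed in the count tables, 45 in the table of the chow livers and 46 in the table of the HFCF livers. Of these, 45 passed the filter on low counts and were tested. The gene that did not pass, Psmb11, encodes a catalytic subunit of the thymus. It was listed for the HFCF livers only, with counts of 0, 1 and 0 in livers labelled WT and 0, 0 and 0 in livers labelled HuRHep-/-.

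The study compared livers of male mice with and without a hepatocyte deletion of Elavl1, the gene of the RNA-binding protein HuR, under each of 2 feeding conditions. All 12 mice carried the floxed Elavl1 allele (HuR flox/flox) on the C57BL/6N background, and were 4 to 6 months old according to the labels. Livers labelled HuRHep-/- came from mice injected with AAV8-Tbg-Cre, a virus in which the hepatocyte promoter Tbg drives the recombinase, and livers labelled WT from mice given AAV8-Tbg-null. The feed was normal chow or, for 16 weeks, the HFCF diet with 40 kcal% fat, 2% cholesterol and 20 kcal% fructose. Each of the 4 groups (Chow WT, Chow HuRHep-/-, HFCF WT and HFCF HuRHep-/-) held 3 livers, 1 library each, and RNA integrity numbers were above 6.0. The study's methods describe the chow mice otherwise, as a cross with an albumin-driven Cre line at a younger age, and the labels were followed here. The chow and HFCF livers were deposited in separate tables, so that the diet and the table cannot be told apart in any comparison between them. The p-values measure the spread between these libraries.

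The targeted gene went against its label. Elavl1 stood at 31.1, 29.3 and 31.2 CPM (a normalised read count, scaled to library size with TMM factors) in Chow WT livers and at 42.9, 39.4 and 39.0 in livers labelled Chow HuRHep-/-. In the HFCF livers it stood at 23.8, 24.2 and 27.0 CPM in WT livers and at 32.1, 31.9 and 33.7 in livers labelled HuRHep-/-. The groups did not overlap, and Elavl1 RNA rose where the label names a deletion, by 0.40 on the log2 scale in chow (SE 0.07, limma adjusted p = 0.0254) and by 0.38 in HFCF (SE 0.07, adjusted p = 0.0326). The counts cover the whole gene, with no values for single exons. Why Elavl1 rose, the state of the deletion and the labels themselves were not tested. Every genotype direction below rests on the labels. Total counts ran from 30071731 to 35949203 per library.

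The proteasome degrades proteins marked with ubiquitin. Its core, the 20S particle, is a barrel of alpha rings around beta rings, in which Psmb6, Psmb7 and Psmb5 carry the proteolytic sites, and the 19S particle on its ends recognizes, unfolds and feeds in the substrate. In immune cells, and in other cells exposed to interferon, Psmb9, Psmb10 and Psmb8 take the places of Psmb6, Psmb7 and Psmb5 in newly built cores, and the resulting immunoproteasome is known for cutting peptides that MHC class I molecules present. The liver is a mixture of hepatocytes and immune, vascular and biliary cells, and in bulk RNA fewer cells of a type cannot be told apart from less RNA per cell.

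The 8 most abundant of the tested genes per length were all constitutive core genes, and the immunoproteasome genes were well below them. On the scale of CPM per kilobase of principal transcript, averaged over the 4 groups, Psmb6 came first at 149, followed by Psmb7 at 146, Psmb4 at 135 and Psmb5 at 126. Psmb10 was in place 34 at 27.0 CPM per kilobase, Psmb8 in place 36 at 20.9 and Psmb9 in place 38 at 16.4. The 7 alpha ring genes had a median level of 73.8 CPM per kilobase, from Psma2 at 29.8 to Psma7 at 106. The 6 genes of the 19S ATPase ring, the motor that unfolds substrates, had a median of 62.9, and the 8 lid genes a median of 40.3. Lower levels were seen for Psme4 at 12.1, the activator PA200, for the assembly chaperone Psmd10 at 8.73, for the inhibitor Psmf1 (PI31) at 8.34 and for the chaperone Psmd5 at 6.999. At the foot of the order were Psme2b, a single-exon copy of Psme2, at 1.03, Psmc3ip at 0.525, and Psma8, an alpha subunit of the testis, at 0.445. Psmc3ip matched the name rule but encodes a factor of meiotic recombination and is no subunit. Among the 42 genes at 10 CPM or more the coefficient of variation within a group had medians of 6.12% in Chow WT, 4.97% in Chow HuRHep-/-, 3.53% in HFCF WT and 4.99% in HFCF HuRHep-/-. The widest spread, 33.9%, was that of Psmb9 in Chow WT livers.

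**Figure D1:**
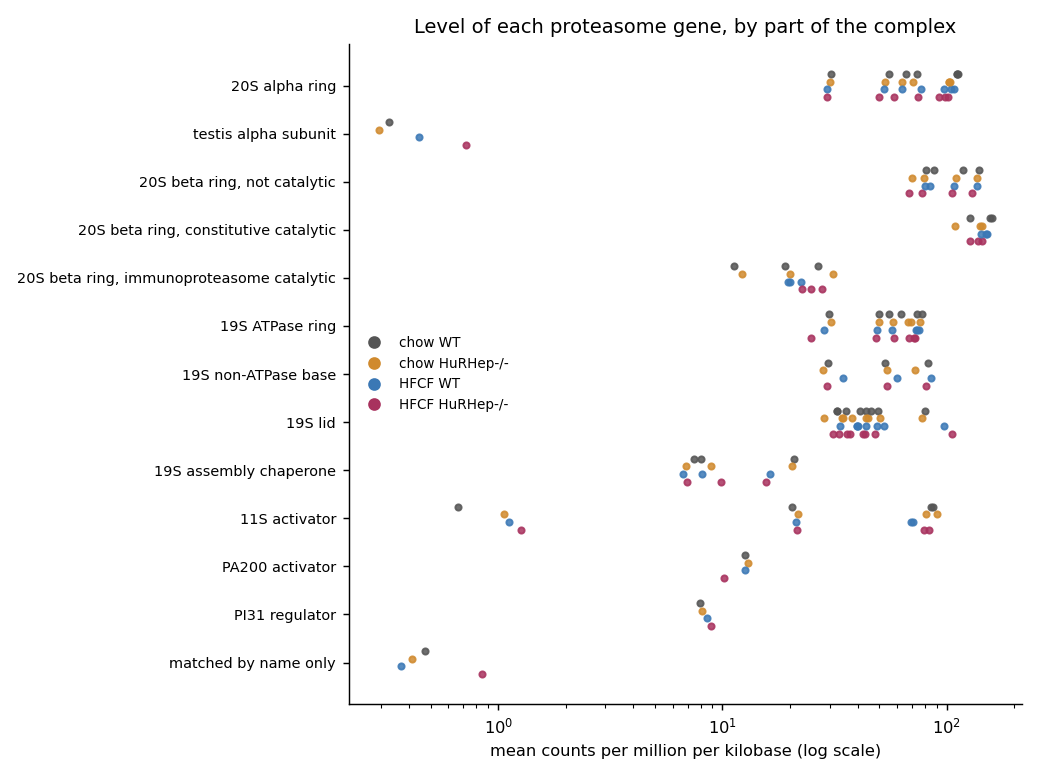
Mean level of each tested proteasome gene in each of the 4 groups (x axis, CPM per kilobase of principal transcript, log scale), by part of the complex (rows), 1 point per gene and group. The 3 immunoproteasome catalytic genes lie between 11.3 and 31.1, below the 3 constitutive catalytic genes, which lie between 108 and 159.

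Stretches upstream of the catalytic genes are shown because these genes exchange places in the core. They come from the RefSeq promoter windows of build GRCm38.p6, 250 bases before to 50 after the start, which 39 of the 46 genes matched, and are printed 5′ to 3′ on the strand of the gene. Capitals mark matches, on either strand, to the interferon-gamma activated site (GAS, TTCNNNGAA), an interferon regulatory factor element (AANNGAAA), the core of the antioxidant response element (ARE, TGACNNNGC) and the GC box (GGGCGG). For Psmb9 and Psmb8 only the surroundings of the match are given, and none is printed for Psmb7. Psmb9 lies at chr17:34187370-34187395 (minus strand), Psmb8 at chr17:34198088-34198116 (plus), Psmb10 at chr8:105938445-105938642 (minus), Psmb5 at chr14:54618023-54618245 (minus) and Psmb6 at chr11:70525107-70525356 (plus).
Psmb9: cgcgatgatgGGGCGGggcctcagtc
Psmb8: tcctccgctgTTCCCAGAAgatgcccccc
Psmb10: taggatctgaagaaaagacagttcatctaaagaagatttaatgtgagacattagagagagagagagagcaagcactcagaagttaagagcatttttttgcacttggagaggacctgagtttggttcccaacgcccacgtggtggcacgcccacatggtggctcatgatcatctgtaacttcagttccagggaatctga
Psmb5: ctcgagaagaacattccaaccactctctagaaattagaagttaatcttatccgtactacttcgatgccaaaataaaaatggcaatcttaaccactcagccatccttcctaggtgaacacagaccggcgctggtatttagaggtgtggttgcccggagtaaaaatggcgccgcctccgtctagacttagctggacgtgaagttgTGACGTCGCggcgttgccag
Psmb6: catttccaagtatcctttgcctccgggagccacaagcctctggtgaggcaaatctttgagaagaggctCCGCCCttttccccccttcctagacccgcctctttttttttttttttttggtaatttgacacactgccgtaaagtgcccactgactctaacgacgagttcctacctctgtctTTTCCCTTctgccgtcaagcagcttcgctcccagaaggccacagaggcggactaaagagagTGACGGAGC
The capitals are a GC box in Psmb9, the GAS letters in Psmb8, the ARE core in Psmb5, and in Psmb6 a GC box and an interferon regulatory factor element, both on the opposite strand, and the ARE core. The stretch of Psmb10 held none of the searched letters. Over all 32851 windows, 8.30% held the GAS letters, against 2 of the 39 proteasome windows (Psmb8 and Psmd2). The interferon regulatory factor element was in 23.9% of all windows and 11 of the 39, the ARE core in 12.4% and 6, and the GC box in 35.7% and 22. A match describes letters only. The starts of Psmb9 and of Tap1, a subunit of the peptide transporter that delivers peptides to MHC class I molecules, have 225 bases between them and point in opposite directions, at 34187330 on the minus and 34187556 on the plus strand of chromosome 17.

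Between the feeding conditions, 11 of the 45 genes were called in WT livers, 7 higher and 4 lower on HFCF, beside 11.1% of all 14535 tested genes called higher and 13.3% called lower. In livers labelled HuRHep-/- 7 were called, 3 higher and 4 lower, beside 18.8% and 20.9% of all tested genes. Psmb9 had the largest called difference in both. Psmb9 stood at 11.1, 21.0 and 13.6 CPM in Chow WT livers and at 26.5, 27.5 and 25.1 in HFCF WT livers. With the label HuRHep-/- it stood at 15.4, 18.2 and 15.9 CPM on chow and at 29.1, 32.1 and 31.05 on HFCF. All HFCF livers were above all chow livers of their genotype, and the second Chow WT liver was the highest of the 6 chow livers. Psmb9 rose by 0.84 on the log2 scale (SE 0.18, a fold of 1.79, adjusted p = 0.00626) in WT livers and by 0.90 (SE 0.18, a fold of 1.87, adjusted p = 0.00251) in livers labelled HuRHep-/-. It was called in all 12 fits that left out 1 library, with log2 fold changes of 0.64 to 1.10 in WT livers, the highest without the second Chow WT liver. Of the called proteasome genes it was the sole one past a fold of 1.5 in each genotype. Some rare genes passed that fold without being called, such as Psma8 in livers labelled HuRHep-/- (log2 fold change 1.17, adjusted p = 0.153). The exons of Psmb9 overlap those of Tap1 on the opposite strand over a share of 0.058 of their length, and reads had been counted by strand.

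The other immunoproteasome catalytic genes were not called between the diets with all livers in the fit. Psmb8 stood at 24.5, 36.8 and 31.2 CPM in Chow WT livers and at 32.3, 34.4 and 30.96 in HFCF WT livers, which overlap (log2 fold change 0.10, SE 0.13, adjusted p = 0.632). In livers labelled HuRHep-/- the values were 30.1, 38.0 and 29.2 CPM on chow and 40.9, 41.0 and 39.8 on HFCF, without overlap, and the log2 fold change of 0.33 (SE 0.13) missed the threshold at an adjusted p of 0.0657. It passed in 3 of the 12 fits without 1 library (the first or the second Chow WT or the second Chow HuRHep-/- liver), with the replicate number as a block (adjusted p = 0.0308), and with upper-quartile factors, where it was 0.41. In WT livers the difference of Psmb8 became -0.06 without the first Chow WT liver and 0.23 without the second. Psmb10 had log2 fold changes of -0.24 (SE 0.13, adjusted p = 0.184) in WT livers and -0.17 (SE 0.13, adjusted p = 0.315) in livers labelled HuRHep-/-. Without the first Chow WT liver the value in WT livers was -0.40 and was called (adjusted p = 0.0239). Of their constitutive partners, Psmb6 differed by -0.08 and -0.00, Psmb7 by -0.03 and -0.03, and Psmb5 by 0.16 (adjusted p = 0.166) in WT livers. Without the second HFCF WT liver the latter was 0.24 and was called (adjusted p = 0.0295). In livers labelled HuRHep-/- Psmb5 rose by 0.23 (SE 0.08, adjusted p = 0.0361). Of the 31-base words of its transcript, 74.0% also occur in other annotated transcripts, 61.7% in Gm3375, so that reads of Psmb5 could be split between them, whereas Psmb8, Psmb9 and Psmb10 shared 0% of such words.

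**Figure D2:**
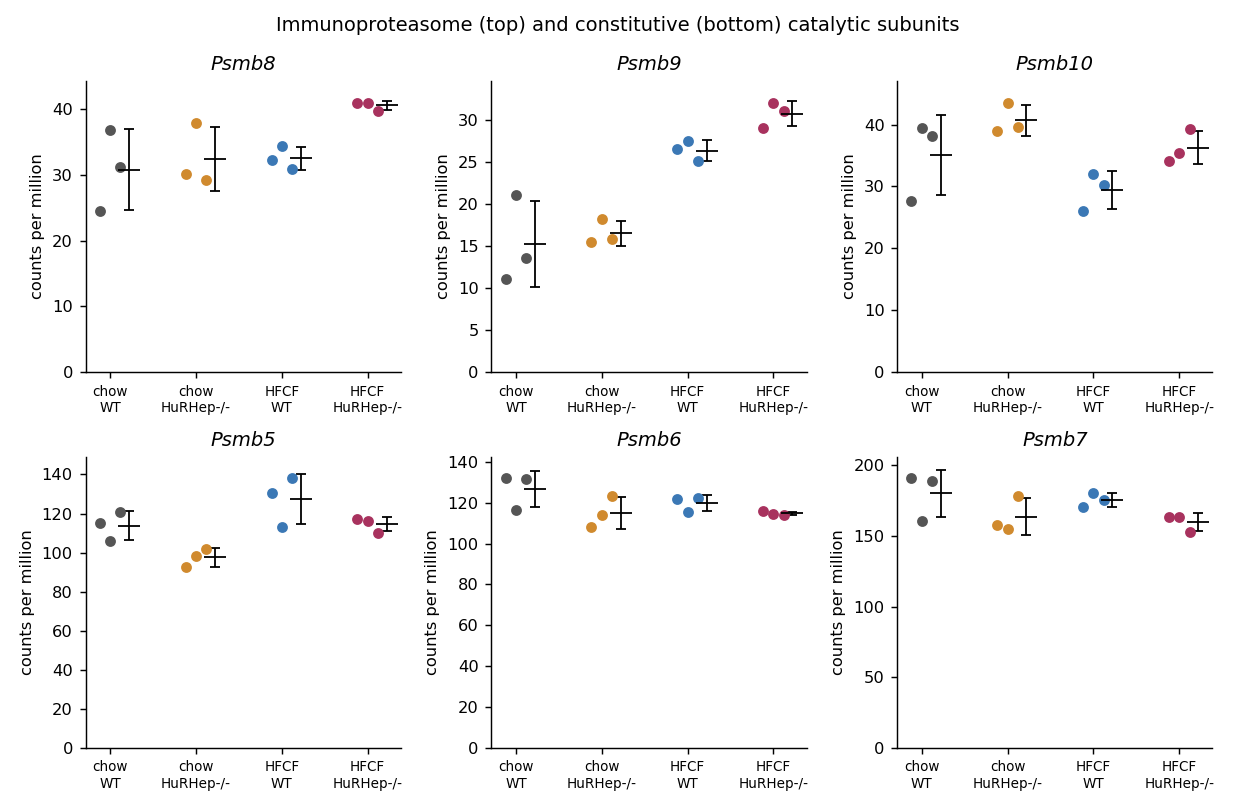
Level of the 6 catalytic subunits in each liver (y axis, CPM, starting at 0, x axis the 4 groups), with points for livers and bars for the mean and SD (n = 3). Psmb9 lies between 11.1 and 21.0 in the chow livers and between 25.1 and 32.1 in the HFCF livers.

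To compare each immunoproteasome gene with the gene whose place it takes, the ratio of their counts was taken within each library, where library size cancels. The log2 ratio of Psmb9 to Psmb6 was -3.57, -2.47 and -3.27 in Chow WT, -2.81, -2.65 and -2.95 in Chow HuRHep-/-, -2.20, -2.07 and -2.28 in HFCF WT and -1.99, -1.84 and -1.87 in livers labelled HFCF HuRHep-/-. All 6 HFCF livers were above all 6 chow livers. The ratio was higher by 0.91 with the HFCF diet, by 0.92 in WT and 0.90 in livers labelled HuRHep-/- (exact two-sided permutation test of diet within genotype, p = 0.005, the smallest its 400 relabelings can give, adjusted p = 0.03 over 6 tests). Without the first HFCF WT liver the ratio was higher by 0.91 with an adjusted p of 0.06 by the same exact test, and the other 11 fits without 1 library passed. The ratio of Psmb8 to Psmb5 differed by 0.02 between diets (exact permutation p = 0.885) and that of Psmb10 to Psmb7 by -0.17 (exact permutation p = 0.22, adjusted p = 0.264).

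Between genotypes, all 3 ratios were higher in livers labelled HuRHep-/- in both feeding conditions, and 1 of the 3 passed the test. The log2 ratio of Psmb10 to Psmb7 was -2.78, -2.03 and -2.31 in Chow WT and -2.02, -1.83 and -2.17 in livers labelled Chow HuRHep-/-, with overlap. It was -2.71, -2.49 and -2.54 in HFCF WT and -2.26, -2.20 and -1.96 in livers labelled HFCF HuRHep-/-, without overlap. The difference was 0.37 in chow and 0.44 in HFCF, 0.40 over both (exact two-sided permutation test of genotype within diet, p = 0.01, adjusted p = 0.03). It passed in 7 of the 12 fits without 1 library. The chow value was 0.16 without the first Chow WT liver and 0.54 without the second. Exact permutation tests gave an adjusted p of 0.06 without the first Chow WT, the first HFCF WT or the third HFCF HuRHep-/- liver, 0.075 without the first and 0.105 without the second Chow HuRHep-/- liver, with differences of 0.30 to 0.41. The ratio of Psmb8 to Psmb5 was higher by 0.39, 0.30 in chow and 0.47 in HFCF, and missed the threshold after adjustment (exact permutation p = 0.03, adjusted p = 0.06). It passed in 2 of the 12 fits without 1 library, at 0.48 without the second Chow WT liver and at 0.45 without the second HFCF WT liver (adjusted p of the exact test 0.015 and 0.04), and the chow value ran from 0.14 to 0.49. The ratio of Psmb9 to Psmb6 was higher by 0.29, 0.30 in chow and 0.28 in HFCF (exact permutation p = 0.115, adjusted p = 0.1725). Without the second Chow WT liver it was 0.45, 0.62 in chow, and passed (adjusted p of the exact test 0.01), and without the first the chow value was 0.07.

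**Figure D3:**
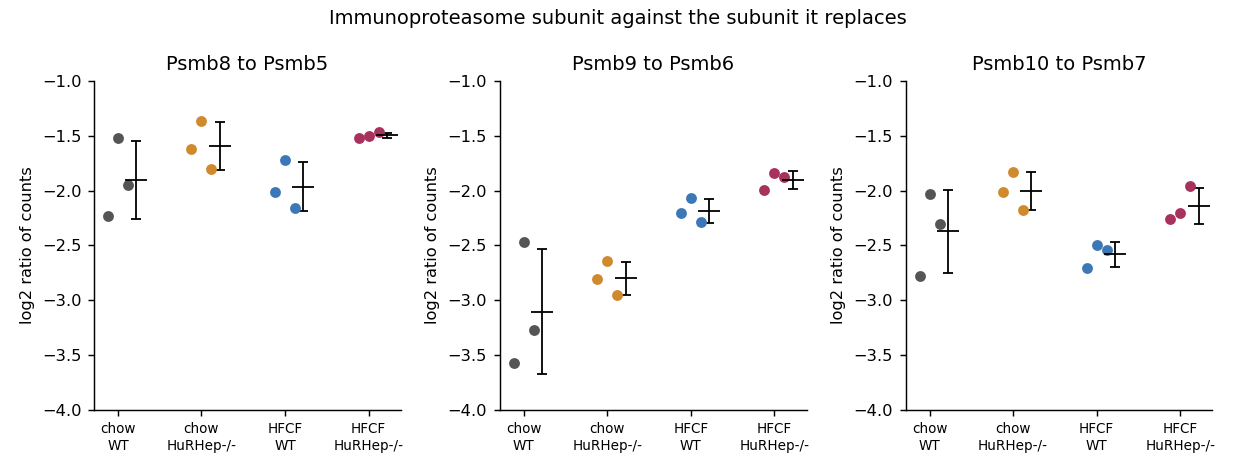
Log2 ratio of the counts of each immunoproteasome catalytic gene to those of the constitutive gene it replaces (y axis) in each liver of the 4 groups (x axis), with bars for the mean and SD (n = 3). For Psmb9 to Psmb6 the chow livers lie between -3.57 and -2.47 and the HFCF livers between -2.28 and -1.84.

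Per length of principal transcript, Psmb9 made up 6.70% ± 2.58 (SD, n = 3) of the sum of Psmb9 and Psmb6 in Chow WT, 7.82% ± 0.773 in Chow HuRHep-/-, 11.5% ± 0.773 in HFCF WT and 13.7% ± 0.652 in livers labelled HFCF HuRHep-/-. Psmb8 made up 13.0% ± 2.85, 15.5% ± 2.00, 12.5% ± 1.71 and 16.4% ± 0.232 of its pair in the same order, and Psmb10 14.8% ± 3.24, 18.1% ± 1.79, 12.9% ± 0.865 and 16.8% ± 1.58. RNA of the constitutive partner was the larger share of each pair in each group. The shares depend on the length used. With the union of all annotated exons, chosen after seeing the data, Psmb8 made up 6.76%, 8.13%, 6.42% and 8.62%, Psmb9 5.86%, 6.85%, 10.1% and 12.1%, and Psmb10 28.1%, 33.3%, 25.1% and 31.3%.

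In chow livers 0 of the 45 proteasome genes were called between genotypes. By limma none passed an adjusted p of 0.05 (5 had an unadjusted p under 0.05, and limma with voom weights also called 0), beside 2.24% of all 13526 tested genes called higher and 2.04% called lower. The median log2 fold change was -0.04, from -0.24 for Psmd12 to 0.53 for Psme2b, beside -0.00 over all tested genes. Groups did not overlap for 2 genes that were higher in livers labelled HuRHep-/- (Psmd10 and Psmd11) and for 6 that were lower (Psma7, Psmb2, Psmb5, Psmd4, Psmd5 and Psmd12), against 14.7% and 14.4% of all tested genes. Overlap was counted with the library sizes of the 6 livers fitted, and Psmd5 overlapped on the CPM scale printed here, which was set over all 12 livers. Psmd11, a lid subunit, stood at 90.7, 90.0 and 96.7 CPM in WT and at 115, 105 and 105 in livers labelled HuRHep-/-, a log2 difference of 0.22 (SE 0.07, adjusted p = 0.0983). Psmb5 stood at 115, 106 and 121 CPM in WT and at 92.5, 98.0 and 102 in livers labelled HuRHep-/-, a difference of -0.22 (SE 0.07, adjusted p = 0.115). Both were without overlap and short of the threshold. Psmb8, Psmb9 and Psmb10 differed by 0.08, 0.16 and 0.23 with overlapping groups (adjusted p = 0.792, 0.686 and 0.338). Without the first Chow WT liver, the lowest for each of them, the differences became -0.07, -0.04 and 0.07, and without the second, the highest, 0.23, 0.43 and 0.33, none of them called (the lowest adjusted p by limma was 0.0937, for Psmb9).

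In HFCF livers 3 of the 45 genes were called between genotypes, 1 higher and 2 lower in livers labelled HuRHep-/-, beside 2.81% of all 14295 tested genes called higher and 4.19% called lower. The median over the 45 genes was -0.07, from -0.36 to 1.11, and 15 had an unadjusted p under 0.05. Psmb8, with 32.3, 34.4 and 30.96 CPM in WT and 40.9, 41.0 and 39.8 in livers labelled HuRHep-/-, rose by 0.31 (SE 0.06, a fold of 1.24, adjusted p = 0.0380). Its groups were apart by more than either group's range. Psmd12, a lid subunit, stood at 76.6, 77.6 and 72.8 CPM in WT and at 63.2, 61.0 and 53.4 in livers labelled HuRHep-/- and fell by 0.36 (SE 0.08, adjusted p = 0.0438). Psme4, whose PA200 protein caps the core in place of the 19S particle, stood at 81.3, 82.6 and 80.8 CPM in WT and at 67.5, 70.4 and 59.7 in livers labelled HuRHep-/- and fell by 0.32 (SE 0.07, adjusted p = 0.04996). The third HuRHep-/- liver was the lowest for both.

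These calls were close to the threshold. Psmb8 passed without the second or the third HFCF WT liver (adjusted p = 0.0373 and 0.0495), and not without the first HFCF WT liver (0.0890) or the first, the second or the third HFCF HuRHep-/- liver (0.138, 0.128 and 0.0909). Psmd12 and Psme4 passed in 0 of the 6 fits without 1 library, with adjusted p of 0.0504 to 0.118 and 0.0697 to 0.141, and all 3 genes kept their sign in each. Without the filter on low counts, 0 of the 3 passed. Groups did not overlap for 7 genes that were higher and 16 that were lower, against 17.0% and 20.0% of all tested genes. On the CPM scale set over all 12 livers, 2 of the 16 (Psma3 and Psma4) overlapped. The 7 were Psmb8, Psmb9, Psmb10, Psme1, Psme2, Psmd10 and Psmc3ip. Psmb9 and Psmb10 differed by 0.21 (SE 0.07, adjusted p = 0.102) and 0.30 (SE 0.09, adjusted p = 0.0891), short of the threshold. Psme1 and Psme2, which form the interferon-inducible 11S activator, differed by 0.19 (SE 0.06, adjusted p = 0.0900) and 0.22 (SE 0.07, adjusted p = 0.0805).

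**Figure D4:**
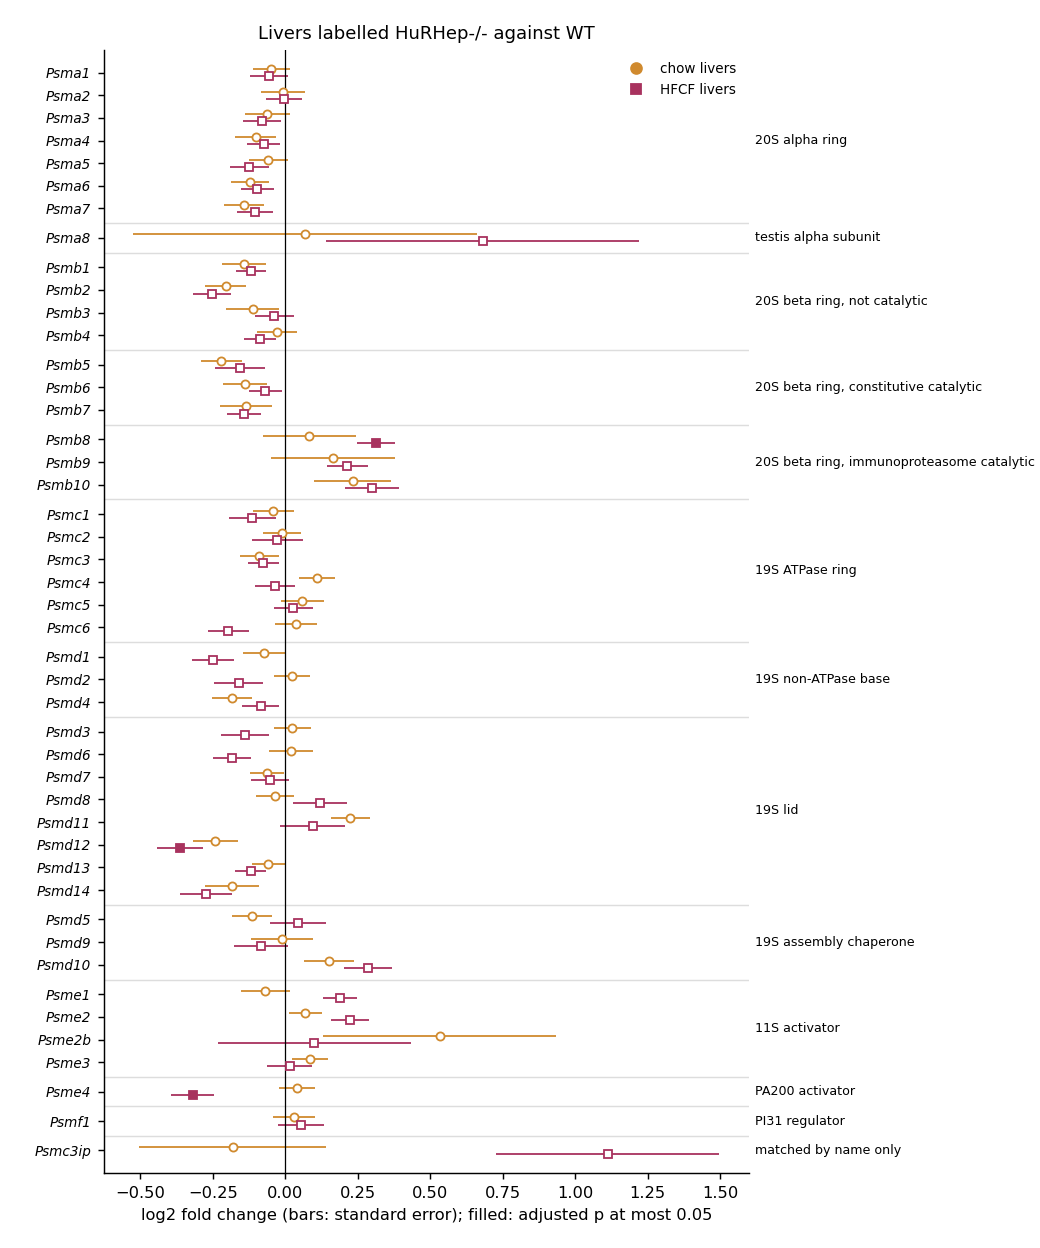
Log2 fold change of livers labelled HuRHep-/- against WT (x axis) for the 45 tested genes (rows, grouped by part of the complex) in chow (circles) and HFCF livers (squares), with bars for the SE of the fit on 3 against 3 livers and filled symbols for an adjusted p of at most 0.05. The filled symbols are Psmb8 at 0.31, Psmd12 at -0.36 and Psme4 at -0.32, each in HFCF livers.

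Within the 20S core the signs divided by part. All 14 constitutive core genes, the 7 alpha ring genes and the 7 beta ring genes other than Psmb8, Psmb9 and Psmb10, had negative fold changes in the genotype fits of both feeding conditions, and 0 of them was called in either. The value nearest 0, that of Psma2 in HFCF livers, was positive on the CPM scale set over all 12 livers. Their median was -0.12 in chow, from -0.22 for Psmb5 to -0.01 for Psma2, and -0.09 in HFCF, from -0.25 for Psmb2 to -0.00 for Psma2. In HFCF livers 13 of the 14 were negative with RLE or upper-quartile scaling, in chow all 14 with either, and 12 to 14 were negative when 1 library was left out. The 3 immunoproteasome genes were positive in both under the 3 scalings. In chow, 1 of the 3 was positive without the first Chow WT liver and 2 without the second HuRHep-/- liver. Among noncatalytic beta subunits, Psmb2 stood at 71.5, 66.3 and 71.1 CPM in Chow WT and at 59.6, 56.9 and 64.6 in livers labelled Chow HuRHep-/-, without overlap (log2 difference -0.21, adjusted p = 0.141). It stood at 67.3, 66.4 and 73.1 CPM in HFCF WT and at 60.5, 56.9 and 56.9 in livers labelled HFCF HuRHep-/-, again without overlap (-0.25, adjusted p = 0.0592). Psmb4 in chow (-0.03) and Psmb3 in HFCF (-0.04) were at the upper end of that group. Psma7 at -0.14 was the lowest alpha ring gene in chow and Psma5 at -0.12 in HFCF.

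The 17 genes of the 19S particle gave 7 positive and 10 negative genotype differences in chow and 3 positive and 14 negative in HFCF, where Psmd12 was the 1 called. In the ATPase ring the extremes were Psmc3 at -0.09 and Psmc4 at 0.11 in chow and Psmc6 at -0.20 and Psmc5 at 0.03 in HFCF. In the rest of the base they were Psmd4, a ubiquitin receptor, at -0.18 and Psmd2 at 0.02 in chow, and Psmd1, a scaffold, at -0.25 and Psmd4 at -0.08 in HFCF. In the lid, Psmd12 was the lowest in both conditions (-0.24 and -0.36), and the highest were Psmd11 in chow and Psmd8 in HFCF at 0.12. Of the 3 assembly chaperones of the base, Psmd10 was the highest in both, at 0.15 and 0.28, with 10.5, 12.1 and 12.1 CPM in HFCF WT and 14.2, 13.9 and 14.3 in livers labelled HFCF HuRHep-/- (adjusted p = 0.0796). Psmd5 was the lowest in chow at -0.11 and Psmd9 in HFCF at -0.08.

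Besides Psmb9, the genes called higher on HFCF in WT livers were all of the 19S particle. Psmd14, the deubiquitinase of the lid, rose by 0.30 (adjusted p = 0.0374), Psmd8 by 0.28 (0.0272), Psmd3 by 0.26 (0.0264), Psmc4 by 0.23 (0.0209), Psmd1 by 0.22 (0.0444) and Psmd13 by 0.17 (0.0309). Psmd14 stood at 52.7, 45.2 and 51.1 CPM in Chow WT and at 60.3, 64.1 and 58.9 in HFCF WT livers. None of these groups overlapped. When 1 library was left out, Psmc4 was called in 10 of the 12 fits, Psmd3 in 8, Psmd8 and Psmd13 in 7, Psmd14 in 6 and Psmd1 in 4, and with the replicate block Psmd14 and Psmd1 were not called (adjusted p = 0.0509 and 0.0600). The genes called lower were Psme1, Psme2, Psmd9 and Psma4. Of these Psma4, an alpha ring gene, was nearest the threshold, at 133, 120 and 135 CPM on chow and 112, 114 and 113 on HFCF (log2 fold change -0.19, adjusted p = 0.0485). It was called in 3 of the 12 fits without 1 library, and neither with RLE or upper-quartile factors nor with the replicate block (adjusted p = 0.0615), and Psmd9 was not called in WT livers with upper-quartile factors.

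Both subunits of the interferon-inducible 11S activator fell in WT livers. Psme1 stood at 87.9, 89.7 and 107 CPM on chow and at 78.9, 74.9 and 76.8 on HFCF, and fell by 0.30 (SE 0.07, adjusted p = 0.0127). Psme2 stood at 81.7, 81.4 and 86.9 CPM on chow and at 63.9, 71.2 and 69.3 on HFCF, and fell by 0.29 (SE 0.06, adjusted p = 0.00600). Both were without overlap and were called in all 12 fits without 1 library. In livers labelled HuRHep-/- they differed by -0.03 (adjusted p = 0.727) and -0.13 (adjusted p = 0.110), and the test of the difference between genotypes was not passed (interaction adjusted p = 0.277 and 0.403). Of the transcript words of Psme2, 66.2% also occur in Psme2b, so that their reads could be split, but Psme2b stood at 0.461 to 1.56 CPM in the 12 livers. The third 11S gene, Psme3, which forms a nuclear activator, differed by 0.05 and -0.01.

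In livers labelled HuRHep-/-, the genes called higher on HFCF were Psmb9, Psmb5 and Psmd8, and those called lower Psmd9, Psme4, Psmc6 and Psmd6. Psmd8 rose by 0.44 (SE 0.08, adjusted p = 0.00175), from 120, 112 and 127 CPM on chow to 167, 164 and 156 on HFCF, without overlap. Psme4 fell by 0.36 (SE 0.07, adjusted p = 0.00182), from 83.2, 81.3 and 88.4 CPM to the 67.5, 70.4 and 59.7 given above, and this comparison shares the HFCF livers labelled HuRHep-/- with the genotype comparison in which it was also called. Psmd9 fell by 0.40 (SE 0.11, adjusted p = 0.0132), against 0.34 (SE 0.11, adjusted p = 0.0426) in WT livers. It stood at 59.3, 45.4 and 57.3 CPM in Chow WT, 39.6, 44.6 and 43.3 in HFCF WT, 51.0, 51.8 and 56.9 in Chow HuRHep-/- and 36.0, 39.9 and 45.3 in livers labelled HFCF HuRHep-/-. The groups of Psmd9 came within 1 CPM of each other in WT livers and did not overlap in either genotype. Psmc6, an ATPase, fell by 0.30 (SE 0.07, adjusted p = 0.00712), from 67.3, 67.0 and 70.1 to 58.0, 57.3 and 50.9 CPM, and the lid subunit Psmd6 fell by 0.22 (adjusted p = 0.0326).

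The diet calls differed in how they held when 1 library was left out. Psmb9, Psme1 and Psme2 in WT livers and Psmb9, Psmc6, Psmd8 and Psme4 in livers labelled HuRHep-/- were called in all 12 fits. Psmd9 was called in 6 of the 12 fits in WT livers and in 10 in livers labelled HuRHep-/-. Psmb5 and Psmd6 were called in 8 each in livers labelled HuRHep-/-. In WT livers the count of called genes was 4 without the first or the third Chow WT or the first or the third HFCF WT liver, and 7 without the second HFCF WT liver. It was 4 in livers labelled HuRHep-/- without the first HFCF HuRHep-/- liver. With upper-quartile scaling, which moved the median of all tested genes by 0.08 in livers labelled HuRHep-/-, 34 of the 45 genes were positive in place of 19, and 11 were called higher and 3 lower. Psme4, Psmc6 and Psmd9 were called lower and Psmb9, Psmb5 and Psmd8 higher under the 3 scalings there, and Psmd6 was not called with upper-quartile factors.

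**Figure D5:**
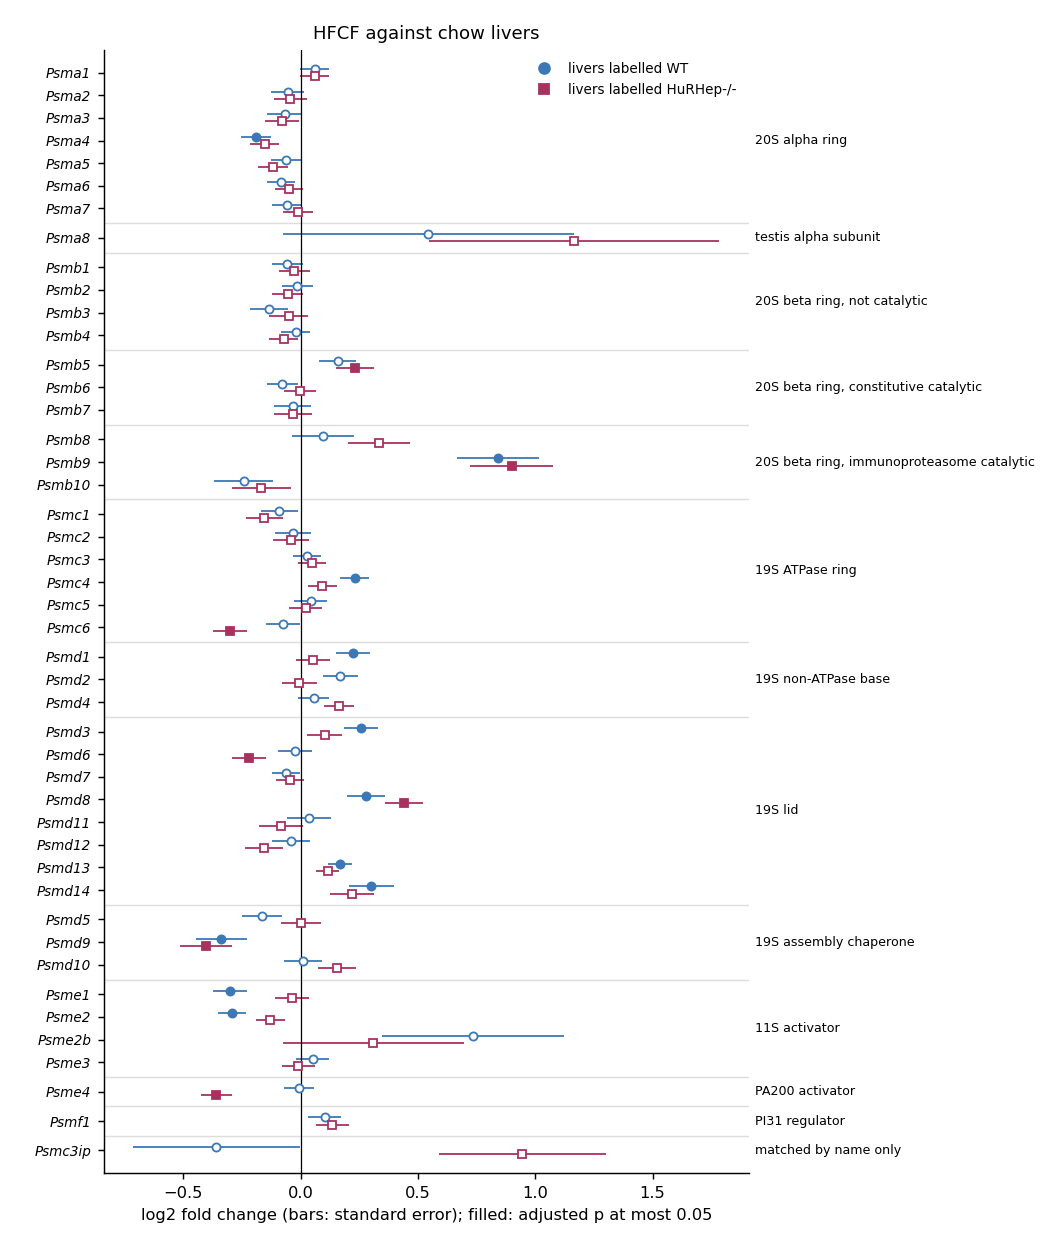
Log2 fold change of HFCF against chow livers (x axis) for the 45 tested genes (rows, grouped by part of the complex) in livers labelled WT (circles) and HuRHep-/- (squares), with bars for the SE of the fit over 12 livers and filled symbols for an adjusted p of at most 0.05. Psmb9 lies at 0.84 and 0.90, apart from the other genes at 10 CPM or more, whose values lie between -0.40 and 0.44.

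The genotype differences were not shown to differ between the feeding conditions. The interaction gave 0 called genes among the 45 (4 with an unadjusted p under 0.05: Psme4, Psmc3ip, Psme1 and Psmc6) and 0% of all 14535 tested genes called higher and 0% called lower by limma, with 2123 at an unadjusted p under 0.05. For Psme4, with genotype differences of 0.04 in chow and -0.32 in HFCF, the difference between them was -0.35 (SE 0.09, adjusted p = 0.165). For Psmb9 it was 0.06 (SE 0.25, adjusted p = 0.937), and for Psmb8 0.24 (SE 0.19, adjusted p = 0.588). When 1 library was left out it ran from -0.20 to 0.26 for Psmb9 and from 0.10 to 0.39 for Psmb8, called in 0 of the 12 fits. The inhibitor Psmf1 differed by 0.03 and 0.05 between genotypes and by 0.10 and 0.14 between diets, with 0 calls. In livers labelled HuRHep-/- the diet value was 0.21 and was called without the third HFCF HuRHep-/- liver, and 0.22 and called with upper-quartile factors.

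The rarest genes rested on few counts. Psma8 had 5 to 64 counts per library, and its genotype differences were 0.07 in chow and 0.68 in HFCF. Psmc3ip had 11 to 66 counts and stood at 0.579, 0.337 and 0.509 CPM in HFCF WT and at 1.63, 0.694 and 0.954 in livers labelled HFCF HuRHep-/-. Its log2 difference of 1.11 (SE 0.38, adjusted p = 0.112) was the highest of the 45 genes and did not pass.

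Genes that act with the proteasome were read from lists of the pathway. In chow, 0 genes of these lists were called between genotypes, beside 2.24% of all tested genes called higher and 2.04% called lower. For the calls given here and in the next paragraph, the shares of all tested genes were as follows. Between genotypes in HFCF, 2.81% were called higher and 4.19% lower. Between diets they were 11.1% and 13.3% in WT livers and 18.8% and 20.9% in livers labelled HuRHep-/-. A list of 7 genes, made up of Pomp and Psmg1 to Psmg4 of core assembly with Sem1 and the ubiquitin receptor Adrm1, had 0 calls between genotypes in HFCF. Between the diets, the assembly chaperone Psmg3 fell by 0.34 in WT livers and Psmg4 rose by 0.35 in livers labelled HuRHep-/-. Of 6 genes that act on proteasome genes or their traffic, Nfe2l2, a transcription factor of the antioxidant response, rose with HFCF by 0.35 in WT and 0.38 in livers labelled HuRHep-/-, and the adaptor Ecpas fell by 0.21 and 0.29. Ngly1 and Ddi2, a deglycosylase and a protease known to process the transcription factor Nfe2l1, fell by 0.33 and 0.32 with HFCF in livers labelled HuRHep-/-, and Ngly1 fell by 0.30 between genotypes in HFCF.

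Of the 9 listed ubiquitin receptors, ligases and deubiquitinases of the proteasome, Uchl5, a deubiquitinase, fell by 0.38 between genotypes in HFCF, and by 0.25 and 0.30 with HFCF in livers labelled WT and HuRHep-/-. The ligase Ube3a fell with HFCF by 0.51 and 0.58. Ubqln2, a shuttle of ubiquitinated proteins, rose by 0.29 in WT livers and the ligase Ube3c fell by 0.34 in livers labelled HuRHep-/-. Of the 6 ubiquitin and ubiquitin-activating genes, Rps27a, which encodes ubiquitin fused to a ribosomal protein, fell with HFCF by 0.54 in WT and by 0.30 in livers labelled HuRHep-/-, and Ubb rose by 0.21 in the latter.

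Genes of MHC class I loading and of interferon signalling belong to the setting in which the immunoproteasome is best known. The comparison with most of their calls, diet in livers labelled HuRHep-/-, was also the one with most calls over all tested genes (18.8% higher and 20.9% lower). Of 11 loading genes, 0 were called between genotypes in either feeding condition. Beside them, 2.24% of all tested genes were called higher and 2.04% lower in chow, and 2.81% and 4.19% in HFCF. With HFCF, 0 were called higher and 1 lower in WT livers (Erap1, which trims peptides, by 0.24), beside 11.1% and 13.3% of all tested genes. In livers labelled HuRHep-/- 3 were called higher and 3 lower. Tap1, the neighbour of Psmb9, stood at 17.7, 41.8 and 23.0 CPM in Chow WT, 23.3, 27.1 and 18.96 in Chow HuRHep-/-, 38.6, 41.2 and 34.8 in HFCF WT and 44.3, 48.8 and 39.0 in livers labelled HFCF HuRHep-/-. The second Chow WT liver was within the range of the HFCF livers for Tap1, and the highest Chow WT liver for Psmb8, Psmb9 and Psmb10. Tap1 rose by 0.94 (SE 0.25, adjusted p = 0.0111) in livers labelled HuRHep-/-, with Tap2 at 0.59 and H2-D1 at 0.38, and differed by 0.57 (adjusted p = 0.113) in WT livers. Erap1, Calr and Pdia3 fell by 0.53, 0.34 and 0.31 in livers labelled HuRHep-/-.

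Of 16 interferon genes, 4 rose between genotypes in HFCF livers, where Psmb8 also rose and 2.81% of all tested genes were called higher: Cxcl10 by 1.26, Gbp2 by 0.83, Isg15 by 0.80 and Irf8 by 0.75. All 16 were positive there, with a median of 0.38 beside -0.01 over all tested genes. In chow livers 15 of them were tested between genotypes, with 6 positive, 9 negative and 0 called. Their median there was -0.08, with Cxcl9 the lowest at -0.89 and Ifngr1 the highest at 0.31. With HFCF, 7 rose and 1 fell in livers labelled HuRHep-/-, beside 18.8% of all tested genes called higher and 20.9% lower. Among the 7 were Cxcl10 by 2.40, Cxcl9 by 1.82, Gbp2 by 1.57, Isg15 by 1.28 and Irf8 by 1.05. In WT livers 0 rose and Jak1 fell by 0.26, beside 11.1% of all tested genes called higher and 13.3% lower. The interaction called 0 of the 16.

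Some marker genes of immune cells were also called higher with HFCF, where 11.1% of all tested genes were called higher in WT livers and 18.8% in livers labelled HuRHep-/-. The summed level of 10 macrophage and Kupffer cell markers ranged over 138 to 179 CPM in Chow WT, 186 to 261 in Chow HuRHep-/-, 210 to 333 in HFCF WT and 331 to 442 in livers labelled HFCF HuRHep-/-. Lyz2 was the highest of them by the mean over all 12 livers, and Clec4f in each chow liver and in the second HFCF WT liver. Of the 10, 5 were called higher with HFCF in WT livers (Cd68, Lyz2, Ccr2, Itgam and Vsig4) and 6 in livers labelled HuRHep-/- (Lyz2, Cd68, Ccr2, Itgam, Csf1r and Adgre1). In each genotype 2 of the 10 were negative and 0 were called lower. The lowest was Marco at -0.97 in WT livers and Timd4 at -0.57 in livers labelled HuRHep-/-. The 12 lymphocyte markers summed to 7.52 to 9.28 CPM in Chow WT, 8.99 to 12.8 in Chow HuRHep-/-, 10.6 to 12.5 in HFCF WT and 17.7 to 19.2 in livers labelled HFCF HuRHep-/-. Ptprc was the highest of them in each liver but the second HFCF WT, where Cd4 was. With HFCF, 1 of 12 was called higher in WT (Ptprc), a share under that of all tested genes. In livers labelled HuRHep-/- 5 were (Ptprc, Cd3e, Cd8a, Nkg7 and Cd3g). With the diet 7 of the 12 were negative in WT livers (median -0.11), and 2 in livers labelled HuRHep-/- (median 0.82). The 6 dendritic cell markers, with Itgax the highest by the mean over all livers and Clec9a in each chow liver, summed to 3.28 to 4.42, 3.00 to 4.17, 3.95 to 7.91 and 7.35 to 14.0 CPM in the same order, with 3 called in livers labelled HuRHep-/- (Itgax, Flt3 and Xcr1). Between genotypes 0 of these immune markers was called in either feeding condition, beside 2.24% of all tested genes called higher in chow and 2.81% in HFCF. All 10 macrophage markers were positive in both, with medians of 0.46 in chow and 0.60 in HFCF. Of the lymphocyte markers tested, 6 of 8 were positive in chow (median 0.12) and 10 of 11 in HFCF (median 0.86). Of the dendritic cell markers tested, 1 of 3 was positive in chow (median -0.36) and 6 of 6 in HFCF (median 0.30). In HFCF livers, where Psmb8 was called, the lymphocyte sums of the genotypes did not overlap, and the macrophage and dendritic cell sums did. In chow livers the macrophage sums of the genotypes did not overlap, and the lymphocyte and dendritic cell sums did.

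The 6 hepatocyte markers, led by Alb, summed to 83342 to 104373 CPM in Chow WT, 67580 to 74934 in Chow HuRHep-/-, 59921 to 64673 in HFCF WT and 54571 to 58409 in livers labelled HFCF HuRHep-/-, so that the defining genes of the labelled tissue were abundant in all. With HFCF, Hnf4a and Cps1 fell in both genotypes, Ttr in WT and Apoa1 in livers labelled HuRHep-/-. Alb did not overlap between diets and missed the threshold, with log2 fold changes of -0.71 (adjusted p = 0.0687) in WT livers and -0.36 (adjusted p = 0.2999) in livers labelled HuRHep-/-. The 4 cholangiocyte markers, with Sox9 the highest in each liver, summed to 6.43 to 12.3 CPM in the other groups and to 17.0 to 25.8 in livers labelled HFCF HuRHep-/-, where Krt7 and Krt19 rose between genotypes by 1.39 and 1.31 and all 4 with the diet. Of 4 stellate cell markers, with Dcn the highest, 2 (Lrat and Colec11) were called higher with HFCF in WT and 4 in livers labelled HuRHep-/-. Of 5 endothelial markers, with Clec4g the highest by the mean over all livers, 1 (Pecam1) was called higher in livers labelled HuRHep-/-. Of all tested genes, 11.1% were called higher and 13.3% lower with HFCF in WT livers, and 18.8% and 20.9% in livers labelled HuRHep-/-. Between genotypes in HFCF livers, 2.81% were called higher. No listed marker was at 0 in all livers of a group. The part of these cells in the Psmb9, Psmb8, Psmb10 and 11S results was not tested.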

How the data were processed

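RNA was sequenced from 12 mouse livers, 1 library each. The authors aligned reads to GRCm38.p6 (RefSeq) with CLC Genomics Workbench (version not given in the sources used here), by reverse strand, and deposited whole read counts per gene in 2 tables, 1 per feeding condition, with 20775 and 22709 genes. The larger deposited counts carry commas (21506 and 23123 values), and all were whole numbers. The commas were removed, and linear models on a log scale were used by choice in place of count models. Gene names that had been turned into dates (23 and 27) were replaced through their identifiers. Total counts ran from 30071731 to 35949203 per library.

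Counts were scaled with TMM factors (trims of 0.3 and 0.05) and turned into log2 CPM with a pseudocount of 0.5. A gene was tested if 3 or more libraries reached the CPM that 10 reads make up in a library of median size, and its counts summed to 15 or more. Genotype was fitted in the 6 libraries of a feeding condition, and diet and interaction over all 12 libraries on genes listed in both tables, with limma 3.58.1 (variance trend, R 4.3.3). P-values were adjusted by Benjamini-Hochberg over all genes tested, and a gene was called at an adjusted p of at most 0.05. A log2 fold change is on the scale of log2(CPM with the pseudocount). Ratios used counts plus 0.5 and exact permutation over 400 relabelings within strata (200 when 1 library was left out), adjusted over 6 tests. Ratios, sequences and figures were made with Python 3.11.15, numpy 2.4.6, pandas 2.3.3, scipy 1.17.1 and matplotlib 3.10.9. Lengths came from GENCODE vM21. Words of 31 bases were compared over all its transcripts. Fits and tests were tested on simulated data.

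The members, the lists and the tests were chosen with earlier results of these data known. The text names Elavl1, the catalytic genes and those they replace, the activators Psme1 to Psme4 and Psmf1, every called proteasome gene (at most 12 per direction), the lowest and highest genotype difference per part of the complex, and called list genes (at most 6 per list and comparison). A few called list genes are not reported here. It also names the highest gene of each cell type list, and the gene that the filter left out. Genes named for place in the order of levels, for groups that did not overlap, for a low unadjusted p or for low counts were chosen after their values were seen. Alternatives were other scalings, filters, pseudocounts, voom weights, a replicate block, a fold threshold of 1.5, all 12 libraries and leaving out each library.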

Additional observations from a re-analysis of the deposited data

How the results depend on the processing

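The count of proteasome genes called in chow livers (0) and in the interaction (0) stayed 0 under each alternative run, leaving out each library included. Of the 3 called between genotypes in HFCF livers, 0 were called without the filter on low counts or with a fold change of at least 1.5, 5 in the fit on all 12 libraries, and 0 to 1 when 1 library was left out. The 11 called between diets in WT livers became 7 without the filter, 1 with the fold threshold, and 4 to 11 when 1 library was left out. The 7 in livers labelled HuRHep-/- became 14 with upper-quartile factors, of which 6 were among the 7, 1 with the fold threshold, and 4 to 10 when 1 library was left out. RLE factors, voom weights, a pseudocount of 2 and a minimum of 10 counts in every library kept each count within 1.5 times. The cause of these moves was not tested. The log2 ratio of Psmb8 to Psmb5 between diets (0.02) reversed to -0.063 without the first Chow WT, -0.033 without the third Chow HuRHep-/- and -0.042 without the second HFCF WT liver, and ran from -0.063 to 0.11. Other ranges without 1 library were 0.30 to 0.48 (Psmb8 to Psmb5, genotype), 0.79 to 1.07 and 0.18 to 0.45 (Psmb9 to Psmb6, diet and genotype), and -0.27 to -0.08 and 0.30 to 0.49 (Psmb10 to Psmb7, diet and genotype). Replicate numbers were shared by the groups. Deviations of livers with the same number correlated at -0.03, 0.11 and -0.02 in chow and 0.10, 0.21 and 0.09 in HFCF. Those with different numbers correlated at -0.15 to 0.15 in chow. In HFCF they correlated at -0.14 to 0.03, below each value for the same number. Whether livers of the same number share more than a number was not tested. With the replicate number as a block, 0, 3, 8, 9 and 0 genes were called (chow, HFCF, diet in WT, diet in HuRHep-/-, interaction), and in exact paired tests, whose smallest p is 0.03125, the ratios Psmb9 to Psmb6 between diets (0.91) and Psmb10 to Psmb7 between genotypes (0.40) had an adjusted p of 0.0625.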
